A study of Mus musculus with 4 samples.

Results

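The genes described here encode 3 groups of enzymes that remove marks from histones: lysine demethylases (Kdm), zinc-dependent deacetylases (Hdac) and NAD-dependent sirtuins (Sirt). They were taken as every probe set whose platform annotation gave exactly 1 gene symbol of one of these families. That rule found 39 of 35556 probe sets, which stood for 36 of 19938 genes with a single-gene probe set. The Kdm family had 19 probe sets for 18 genes, the Hdac family 13 for 11 genes, and the Sirt family 7 for 7 genes. No RefSeq protein-coding gene of these families lacked a probe set. RNA was hybridised to 4 Affymetrix Mouse Gene 1.0 ST arrays, whose probes are spread over each transcript. It was extracted from Flt3-negative LSK cells of mouse bone marrow (no lineage markers, Sca-1 and c-Kit on the surface), a fraction rich in blood stem cells. The 2 control arrays came from mice with the Mx1-Cre transgene, 1 floxed and 1 wild-type Gabpa allele. The 2 arrays labelled GABPα-deficient (the deficient pair) came from mice with Mx1-Cre, 1 floxed and 1 null Gabpa allele. All mice were 6 to 8 weeks old, came from a stock backcrossed for 4 generations to C57BL/6, and received pIpC, with cells sorted 4 days after its last dose. Mx1-Cre is driven by an interferon-responsive promoter and is not restricted to stem cells, so recombination after pIpC can occur in many cell types. Controls thus carried the transgene, a floxed allele and the pIpC treatment too, so their floxed allele could recombine as well. The reference was therefore mice with 1 floxed, possibly deleted, and 1 wild-type Gabpa allele, not a plain wild type. The labels do not say whether an array holds 1 animal or a pool, so every p-value here reflects variation among these arrays alone, and that variation may be technical.

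GABPα is the DNA-binding subunit of an ETS-family transcription factor, and the comparison asks how expression differs between these genotypes after pIpC. Lysine demethylases come as flavin-dependent amine oxidases (Kdm1) and as JmjC-domain dioxygenases that need iron and α-ketoglutarate, and each subfamily prefers particular methylated lysines. Deacetylases of class I are nuclear and work in repressor complexes, those of class IIa shuttle between nucleus and cytoplasm and act with MEF2 factors, and sirtuins use NAD and act in the nucleus, cytosol or mitochondria. Several of these enzymes, among them the products of Kdm1a, Kdm5b, Hdac3 and Sirt1, have been studied in blood stem cells and their differentiation.

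The deposited values are log2 expression values from RMA, in which 1 unit is a doubling. For Gabpa itself the controls gave 8.43 and 7.28 and the deficient pair 6.43 and 7.85. The groups overlapped, and a probe set of whole-transcript design may hold many probes outside the deleted exons, so it checks nothing about the deletion here. Kit, a gene of the sorting gate, read 10.21 and 10.21 on the controls against 7.70 and 8.50. Flt3, whose protein the sort selected against, read 8.43 and 9.27 on the controls and 5.68 and 5.95 on the deficient pair, so its RNA was bright in the controls of a fraction called Flt3-negative. Both genes are in the list of stem and progenitor markers. Cell type marker lists differed between the groups. Of 12 measured stem and progenitor markers, 9 were lower and 0 higher at an unadjusted p under 0.05 in limma, and their summed linear intensity was 7604 to 7735 on the controls and 1736 to 2715 on the arrays labelled deficient. Of 14 erythroid markers, 0 were lower and 10 higher, with sums of 2251 to 2255 against 6156 to 7829. Of 14 macrophage markers, 0 were lower and 6 higher (1168 to 1333 against 2261 to 4177). Of 15 stromal and endothelial markers, 0 were lower and 5 higher (1385 to 1432 against 2407 to 3051). Sparc weighs heavily in that last sum, with a difference of 3.80 (SE 0.24) against a median of 0.32 for the list. Of the 15, 11 had a positive difference and 4 a negative one, from −0.61 for Igfbp4 to −0.17 for Emcn. Megakaryocyte markers had 4 of 7 lower and 0 higher, granulocyte and monocyte markers 1 and 0 of 11, B and plasma cell markers 0 and 2 of 9, and T and NK cell markers 0 and 2 of 10. The deposited table holds no detection calls, so no marker can be said to be absent. These shifts stand beside every result below, and their part in them was not tested. In bulk RNA, fewer cells of a type and less RNA per cell cannot be told apart.

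None of the 39 probe sets passed limma at a Benjamini-Hochberg adjusted p under 0.05, as none of the whole table did (0.00% lower and 0.00% higher), and the lowest adjusted p among them was 0.326. Values are therefore given as measured, and the unadjusted threshold serves only to choose which to give in full. At an unadjusted p under 0.05, 5 of the 39 were lower on the arrays labelled deficient, against 5.25% of all probe sets, and 2 were higher, against 6.64%. The 5 were Kdm2a, Kdm3a, Kdm3b, Hdac4 and Sirt3, and the 2 were Hdac3 and Sirt7. With cyclic loess the lean of the whole table turned round, from 1865 lower and 2360 higher to 2349 lower and 1191 higher, and the members gave 8 and 2. The members' counts also moved when single arrays were left out, and so did those of the whole table, as given in the closing section. Both arrays labelled deficient lay below both controls for 14 of the 39, against 14.0% of all probe sets, and above both for 7, against 38.9%. The count of separated probe sets in either direction, 21 of 39, was close to that of the whole table (52.9%). What differed from the table was the side on which they lay.

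The family medians were negative for Kdm and Hdac and positive for Sirt, and no test of a difference between families was run. Of the 19 Kdm probe sets, 14 had a negative difference (labelled deficient minus control), against 33.7% of all probe sets, with a median log2 difference of −0.24. Of the 13 Hdac probe sets, 7 were negative, with a median of −0.16. Of the 7 sirtuins, 3 were negative and 4 positive, against 66.3% positive over all probe sets, with a median of 0.20. The median over all probe sets was 0.15, so the family medians were −0.38, −0.31 and 0.050 relative to it. Cyclic loess, which moves the median of all probe sets from 0.15 to −0.0045, gave medians of −0.30 for Kdm, −0.26 for Hdac and −0.0014 for Sirt, so the sign of the sirtuin median depends on the scaling. With 1 probe set per gene the Hdac median was 0.078, above 0, so the Hdac family has no settled direction either. Without control replicate 1 the Hdac median was 0.071, and without deficient replicate 1 the Hdac median was −0.037 and the sirtuin median −0.12. The Kdm median stayed negative with any 1 array left out, from −0.37 to −0.14.

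**Figure D1:**
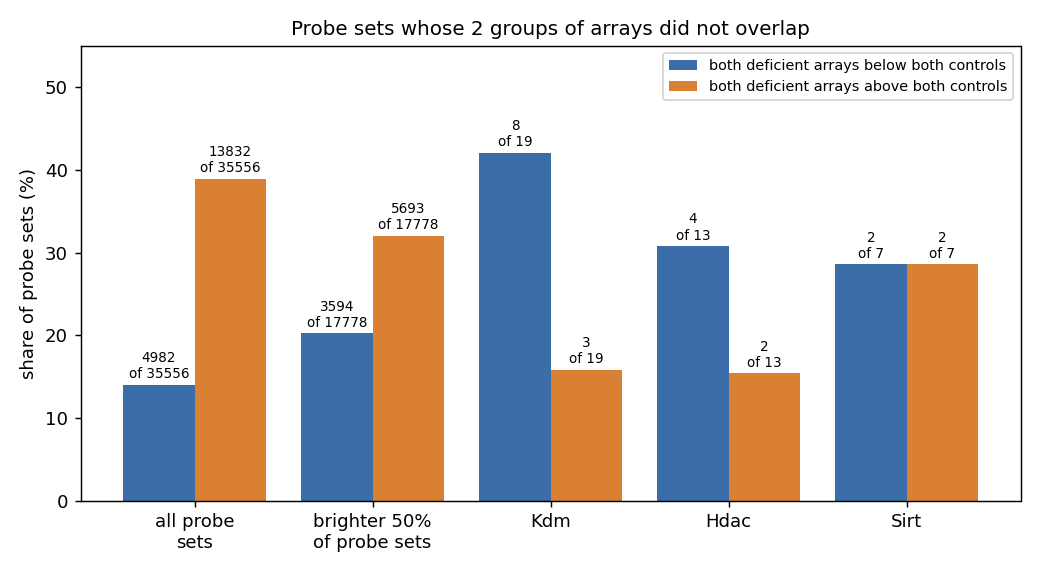
Share of probe sets (%) for which both arrays labelled deficient lay below (blue) or above (orange) both control arrays, for all probe sets, the brighter 50% of them, and the 3 enzyme families, with counts above the bars. Kdm probe sets lay below in 8 of 19 cases and above in 3, while the whole table leaned the other way.

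Brightness and scaling bear on this split. Of the 39 members, 33 belonged to the brighter 50% of probe sets, where 20.2% lay below both controls and 32.0% above, and where 8.34% were lower and 7.63% higher at the unadjusted threshold. After cyclic loess 22.5% of all probe sets lay below and 21.3% above, against 10 and 1 of the 19 Kdm, 4 and 2 of the 13 Hdac and 2 and 1 of the 7 Sirt probe sets. After subtraction of column medians the whole table gave 18.5% and 30.0%, and the Kdm counts were again 8 and 3. Kdm genes were also long, with a median genomic span of 57.3 kb against 27.6 kb for Hdac genes. Over the whole table the median difference was 0.078 for the longest 25% of genes and 0.23 for the shortest. The part of gene length in the Kdm values was not tested.

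GABP binds an ETS core, and its letters were looked for in RefSeq promoter windows of mouse assembly GRCm38.p6 that run from 250 bases before to 50 after a start site. The letters searched were CCGGAAG, on both strands, so that CTTCCGG counts as well, and no other motif was searched. A window with a match was found for 6 of the 28 member genes in the promoter table (21.4%), against 9.93% of all 27025 genes there. Those 27025 genes were not matched to the members in gene type or base content. Counted by window, since a gene can have several, the shares were 6 of 40 (15%) and 8.86%. The genes with a match were Kdm3a, Kdm4d and Kdm7a of 13 Kdm genes and Sirt3, Sirt6 and Sirt7 of 7 sirtuins. Of 8 Hdac genes, 0 had one. Hdac1, Hdac3, Hdac10, Kdm2a, Kdm3b, Kdm4b, Kdm5a and Kdm6b were not in the table. Kdm3a, Sirt3 and Sirt7 are the ones that also passed the unadjusted threshold, so their windows with a match are shown. Each runs 5′ to 3′ on the gene's strand from 150 bases before the start to 30 after it, with the matched letters in capitals. The Kdm3a window is chr6:71632657-71632836 on the minus strand and belongs to 1 of its annotated starts, the Sirt3 window is chr7:140882280-140882459 on the minus strand and also belongs to 1 of its annotated starts, and the Sirt7 window is chr11:120624985-120625164 on the minus strand.
Kdm3a: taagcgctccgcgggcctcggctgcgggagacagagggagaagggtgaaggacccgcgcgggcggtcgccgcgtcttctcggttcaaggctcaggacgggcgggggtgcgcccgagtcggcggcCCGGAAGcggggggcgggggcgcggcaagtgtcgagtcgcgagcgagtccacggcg
Sirt3: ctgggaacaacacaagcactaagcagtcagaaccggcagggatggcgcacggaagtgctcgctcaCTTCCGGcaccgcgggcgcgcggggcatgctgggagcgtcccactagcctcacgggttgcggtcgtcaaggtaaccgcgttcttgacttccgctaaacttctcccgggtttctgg
Sirt7: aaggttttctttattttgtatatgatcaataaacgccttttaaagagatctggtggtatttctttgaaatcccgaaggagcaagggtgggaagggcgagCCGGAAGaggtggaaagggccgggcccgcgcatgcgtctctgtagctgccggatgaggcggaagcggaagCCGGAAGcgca
Counted in bases from the start site, the match begins at −26 in Kdm3a and at −85 in Sirt3, where it lies on the opposite strand. Sirt7 has 2 matches, which begin at −51 and at 20. A match describes these letters only and is not shown to be a binding site.

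Among the Kdm genes, Kdm2a stood farthest from its controls. Kdm2a encodes a JmjC enzyme that binds unmethylated CpG islands and acts on methylated lysine 36 of histone H3. It read 8.43 and 8.38 on the controls against 5.84 and 7.04 on the deficient pair. Both of the latter were low, and they differed from each other far more than the controls did. The means were 8.41 ± 0.038 (SD, n = 2) and 6.44 ± 0.85, a difference of −1.97 (SE 0.46, limma adjusted p = 0.373). It missed the unadjusted threshold without control replicate 1 (−1.94) or control replicate 2 (−2.00). Its relative Kdm2b, a partner of a Polycomb complex, read 7.58 and 7.52 against 7.60 and 7.03. The groups overlapped, and the Kdm2b difference of −0.24 (SE 0.25) became 0.049 without deficient replicate 2.

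Both Kdm3 genes, whose enzymes remove methyl groups from lysine 9 of histone H3, were lower by about the same amount. Kdm3a read 7.37 and 7.00 on the controls against 6.37 and 6.46 on the deficient pair. The group means were 7.18 ± 0.26 and 6.41 ± 0.063 (SD, n = 2), a difference of −0.77 (SE 0.19, adjusted p = 0.387). Kdm3b read 9.31 and 9.24 against 8.30 and 8.72. Its means were 9.27 ± 0.049 and 8.51 ± 0.30, a difference of −0.76 (SE 0.21, adjusted p = 0.400). In both genes the groups were separate. Without control replicate 1 neither passed the unadjusted threshold, with differences of −0.59 for Kdm3a and −0.73 for Kdm3b, nor did they without deficient replicate 1 (−0.73 and −0.55).

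**Figure D2:**
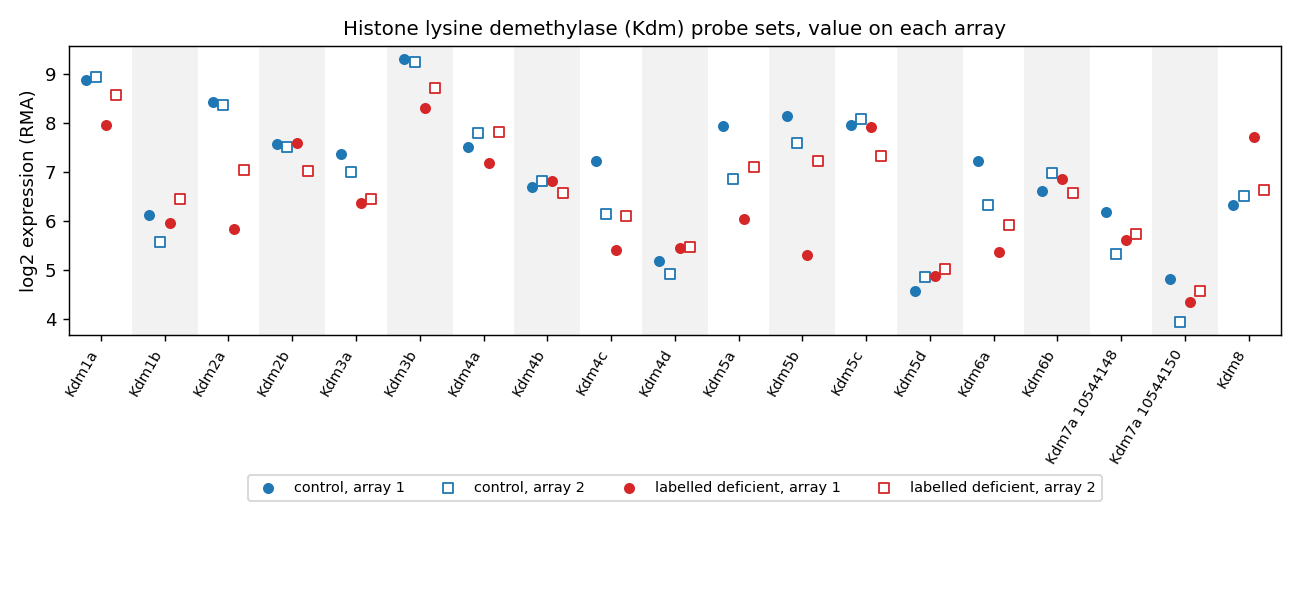
Log2 expression value of each Kdm probe set (x axis) on each of the 4 arrays: control arrays in blue, arrays labelled deficient in red, circles for replicate 1 and open squares for replicate 2. Kdm2a, Kdm3a and Kdm3b have both red points below both blue ones, and in Kdm2a and Kdm5b the red circle lies far below the red square.

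The flavin-dependent genes parted. Kdm1a, which encodes LSD1, the demethylase of the CoREST complex that removes methyl groups from lysine 4 of histone H3, read 8.88 and 8.94 on the controls against 7.96 and 8.57 on the deficient pair. The groups did not overlap, and the difference was −0.64 (SE 0.26, adjusted p = 0.426). Without deficient replicate 1 it was −0.34, and without deficient replicate 2 −0.95. Kdm1b, which encodes LSD2, read 6.13 and 5.58 against 5.95 and 6.45, with overlapping groups and a difference of 0.35 (SE 0.30). The Kdm1b difference ran from 0.069 without control replicate 2 to 0.63 without control replicate 1, and was 0.099 without deficient replicate 2.

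In the Kdm4 subfamily, which acts on lysines 9 and 36 of histone H3, no single side was taken. Kdm4c read 7.23 and 6.15 on the controls against 5.42 and 6.11 on the deficient pair, a difference of −0.93 (SE 0.48). Control replicate 2 lay barely above the nearer of the deficient pair, and without control replicate 1 the difference was −0.38. Kdm4d read 5.19 and 4.93 against 5.45 and 5.47, higher with separate groups and a difference of 0.40 (SE 0.16). For Kdm4a (−0.15, SE 0.29) and Kdm4b the groups overlapped, and their signs turned with 1 array left out, Kdm4a to 0.17 without deficient replicate 1 and Kdm4b to 0.068 without deficient replicate 2. Kdm4b had the smallest difference of the family, at −0.052 (SE 0.17), with 6.70 and 6.81 against 6.82 and 6.58.

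Kdm5 enzymes remove methyl groups from lysine 4 of histone H3. Kdm5b read 8.15 and 7.59 on the controls against 5.31 and 7.23 on the deficient pair. Both of the latter were lower, but deficient replicate 1 alone was far below. The difference of −1.60 (SE 0.74, adjusted p = 0.440) was −0.64 without that array and −2.56 without deficient replicate 2. Kdm5a, a partner of SIN3 complexes, read 7.94 and 6.85 against 6.04 and 7.11, with overlapping groups and a difference of −0.82 (SE 0.57). Without deficient replicate 1 the Kdm5a difference was −0.29, and without control replicate 1 it was −0.28. X-linked Kdm5c read 7.96 and 8.08 against 7.92 and 7.33, a difference of −0.40 (SE 0.25) that was −0.10 without deficient replicate 2 and −0.69 without deficient replicate 1.

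Y-linked Kdm5d was in the dimmer 50% of probe sets, at 4.58 and 4.86 on the controls against 4.89 and 5.03 on the deficient pair. Of the other Y-linked genes, Sry read 6.69 and 6.83 against 6.85 and 6.94, and the rest read lower. Uty read 3.95 and 3.95 against 3.98 and 4.00, and Eif2s3y read 2.99 and 3.15 against 3.33 and 3.23. Ddx3y had no single-gene probe set. Xist, the RNA of the inactive X chromosome, was uneven, at 9.54 and 7.99 on the controls against 6.05 and 7.57 on the deficient pair.

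Kdm6 enzymes remove methyl groups from lysine 27 of histone H3, opposite to Polycomb. X-linked Kdm6a, which encodes UTX, read 7.23 and 6.33 on the controls against 5.36 and 5.92 on the deficient pair. The groups did not overlap, and the difference was −1.14 (SE 0.41, adjusted p = 0.421), or −0.69 without control replicate 1. Kdm6b, which encodes the inducible JMJD3, read 6.61 and 6.98 against 6.86 and 6.58, with a difference of −0.081 (SE 0.22) that turned to 0.10 without control replicate 2 and 0.059 without deficient replicate 2.

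Of the remaining Kdm genes, Kdm8, a JmjC hydroxylase, was the highest above its controls. It read 6.32 and 6.51 on the controls against 7.73 and 6.64 on the deficient pair. The groups were separate by a narrow gap, and the difference of 0.77 (SE 0.42) was 0.23 without deficient replicate 1 and 1.31 without deficient replicate 2. Kdm7a, a demethylase of lysines 9 and 27, had 2 probe sets in the dimmer 50%, with overlapping groups and differences of −0.086 (SE 0.35) and 0.071 (SE 0.35). The first turned to 0.35 without control replicate 1, and the second to −0.11 with cyclic loess.

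Class I deacetylases did not lie on one side. Hdac3, the catalytic subunit of NCoR and SMRT complexes, read 7.42 and 8.08 on the controls against 9.11 and 8.51 on the deficient pair. Both of the latter were higher. The means were 7.75 ± 0.47 and 8.81 ± 0.43 (SD, n = 2), a difference of 1.06 (SE 0.35, adjusted p = 0.412). The Hdac3 difference no longer passed the unadjusted threshold with subtracted column medians, a trended robust variance or the replicate block, nor without deficient replicate 1 (0.76) or control replicate 1 (0.73). Hdac2, a core enzyme of NuRD, SIN3 and CoREST complexes, read 10.27 and 10.05 against 8.05 and 9.76. The groups were separate, but deficient replicate 2 lay near the controls. The difference of −1.26 (SE 0.64, adjusted p = 0.452) was −0.40 without deficient replicate 1 and −2.11 without deficient replicate 2.

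Hdac1, the close relative of Hdac2 in the same complexes, had 2 probe sets annotated with the same transcripts. Probe set 10516605 read 10.83 and 10.46 on the controls against 10.22 and 10.62 on the deficient pair, and probe set 10447004 read 10.44 and 10.14 against 9.82 and 10.25. The groups overlapped on both, with differences of −0.23 (SE 0.24) and −0.25 (SE 0.23). They were −0.029 and −0.037 without deficient replicate 1. Hdac8, an X-linked class I enzyme, read 6.75 and 7.00 against 7.77 and 6.83, with overlapping groups and a difference of 0.43 (SE 0.38) that became −0.041 without deficient replicate 1. Both Hdac1 probe sets and Kdm5a ordered the 4 arrays as Gabpa did (deficient replicate 1 lowest, then control replicate 2, deficient replicate 2 and control replicate 1), as did 3.64% of all probe sets.

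**Figure D3:**
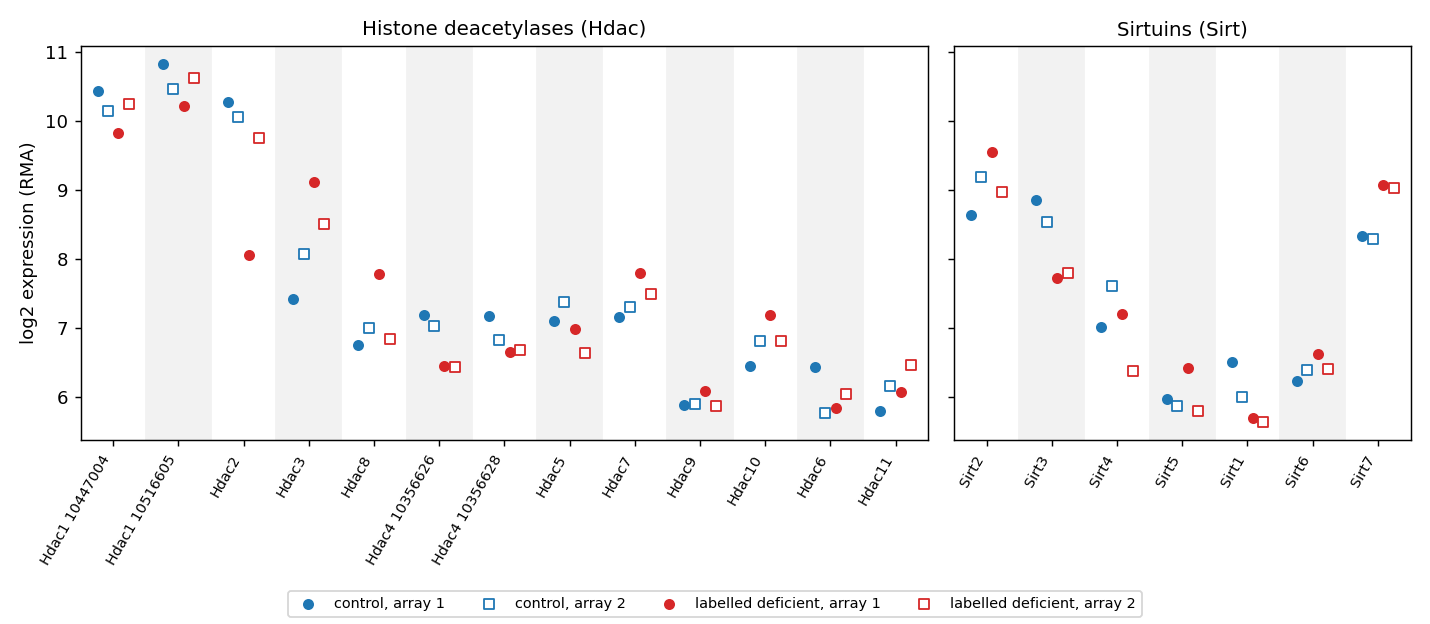
Log2 expression value of each Hdac (left) and Sirt (right) probe set on each of the 4 arrays, with control arrays in blue, arrays labelled deficient in red, circles for replicate 1 and open squares for replicate 2. Sirt7 and Sirt3 show tight pairs on opposite sides, Hdac3 has both red points on top, and the red circle of Hdac2 lies far below its other points.

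Class IIa deacetylases, which bind MEF2 factors, differed among themselves too. Hdac4 had 2 probe sets. Probe set 10356626 read 7.18 and 7.02 on the controls against 6.45 and 6.43 on the deficient pair, where the means were 7.10 ± 0.11 and 6.44 ± 0.016 (SD, n = 2), with a difference of −0.66 (SE 0.15, adjusted p = 0.365). Probe set 10356628 read 7.17 and 6.82 against 6.65 and 6.68, a difference of −0.33 (SE 0.19, adjusted p = 0.470). Both were lower with separate groups, and only the first passed the unadjusted threshold. Without control replicate 1 the first was −0.58 and no longer passed, and the second was −0.15. Hdac5 also lay lower, at 7.10 and 7.38 against 6.98 and 6.64, a difference of −0.43 (SE 0.21) that was −0.26 without deficient replicate 2. Hdac7, by contrast, read 7.16 and 7.30 against 7.80 and 7.49, higher by 0.42 (SE 0.18) with separate groups, or 0.27 without deficient replicate 1. Hdac9 had the smallest difference of the family, 0.078 (SE 0.16), at 5.88 and 5.90 against 6.08 and 5.86, and it turned to −0.12 with cyclic loess.

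Class IIb and IV genes gave overlapping groups. Hdac6, a cytoplasmic tubulin deacetylase, differed by −0.16 (SE 0.28), Hdac10, a polyamine deacetylase, by 0.36 (SE 0.23), and Hdac11, the class IV member, by 0.28 (SE 0.24). The Hdac6 difference turned to 0.17 without control replicate 1. That of Hdac10 was 0.18 without control replicate 1 or deficient replicate 1, and that of Hdac11 was 0.10 without control replicate 1, 0.089 without deficient replicate 2 and 0.098 with cyclic loess. The values of Hdac10 ran from 6.45 to 6.81 on the controls and from 6.81 to 7.18 on the arrays labelled deficient, so its groups met.

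Sirtuins held the members with the smallest p in either direction. Sirt7, a nuclear and nucleolar deacetylase linked to ribosomal DNA, read 8.34 and 8.28 on the controls against 9.08 and 9.02 on the deficient pair. Both pairs were tight, and the groups were far apart. The means were 8.31 ± 0.038 and 9.05 ± 0.038 (SD, n = 2), a difference of 0.74 (SE 0.14, adjusted p = 0.326), or 0.59 relative to all probe sets. Sirt3, the main mitochondrial deacetylase, read 8.86 and 8.53 against 7.72 and 7.79. Again the groups were separate, here with the arrays labelled deficient lower. Its means were 8.70 ± 0.23 and 7.75 ± 0.054, a difference of −0.94 (SE 0.18, adjusted p = 0.328). Sirt7 and Sirt3 kept an unadjusted p under 0.05 in all 9 alternatives run for them, against 8 for Hdac4 (10356626), 7 for Kdm2a, 6 for Kdm3a, 5 for Kdm3b and 4 for Hdac3, with adjusted p from 0.293 to 0.725 for Sirt7 and from 0.280 to 0.724 for Sirt3. With any 1 array left out, the Sirt7 difference ran from 0.71 to 0.76 and the Sirt3 difference from −1.11 to −0.78. All these alternatives reuse the arrays on which both genes were picked for their small p, so they are no separate support.

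Sirt1, a nuclear deacetylase of histones, p53 and FOXO factors, read 6.51 and 5.99 on the controls against 5.69 and 5.63 on the deficient pair. The groups did not overlap, and the difference was −0.59 (SE 0.23, adjusted p = 0.426), or −0.33 without control replicate 1. Sirt6, a chromatin deacetylase with roles in DNA repair, had the smallest difference of the family at 0.20 (SE 0.16), with 6.23 and 6.39 against 6.61 and 6.40. Its groups were separate by a hair and the difference was 0.038 with cyclic loess. Sirt2, the cytosolic member, read 8.63 and 9.18 against 9.55 and 8.97, with overlapping groups and a difference of 0.35 (SE 0.32). The Sirt2 difference was 0.060 without deficient replicate 1 and 0.073 without control replicate 1.

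The other mitochondrial sirtuins gave no separation. Sirt4 read 7.02 and 7.61 on the controls against 7.20 and 6.37 on the deficient pair, a difference of −0.53 (SE 0.39) that was −0.12 without deficient replicate 2. Sirt5, which removes succinyl and malonyl groups, read 5.96 and 5.86 against 6.42 and 5.79, a difference of 0.20 (SE 0.27) that was −0.12 without deficient replicate 1 and −0.0014 with cyclic loess. The Sirt4 difference thus had the same sign as that of Sirt3, though its groups overlapped, and the side of Sirt5 is not settled.

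**Figure D4:**
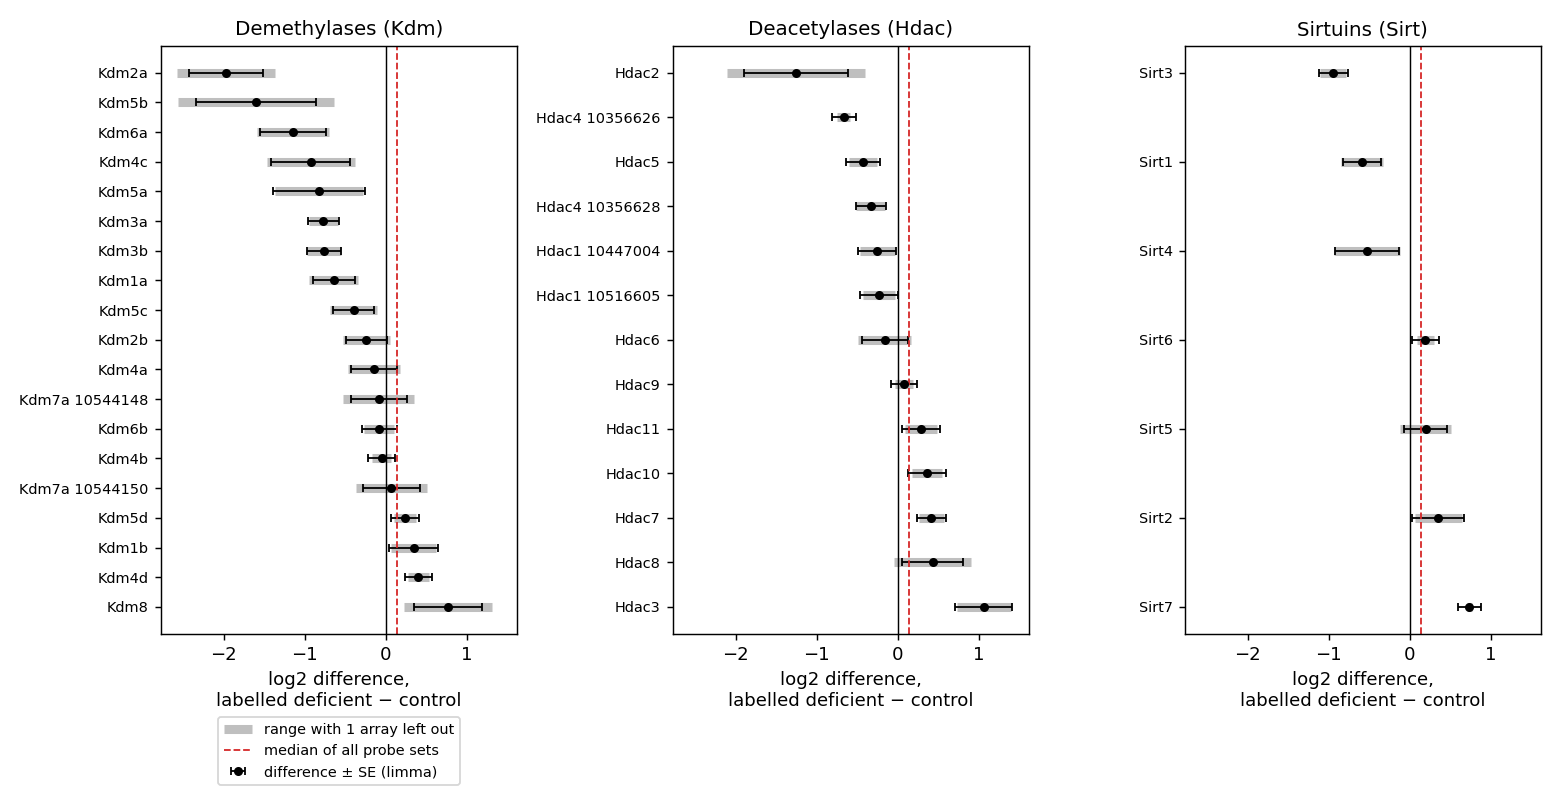
Log2 difference (labelled deficient minus control) of each Kdm, Hdac and Sirt probe set, with points for the estimate, thin bars for its limma SE and grey bands for the range when 1 of the 4 arrays is left out. The dashed line marks the median of all probe sets, 0.15. Bands of Hdac2 and Kdm5b are wide. Those of Sirt7 and Hdac4 (10356626) are narrow, and so are those of members with small differences, such as Sirt6, Hdac9 and Kdm4b.

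The distance between the 2 arrays of a group differed by family. Over the Kdm probe sets, the median distance was 0.55 between the arrays labelled deficient and 0.29 between the controls. Hdac probe sets gave 0.37 and 0.30, and sirtuins, the other way round, 0.21 and 0.32. All probe sets gave 0.23 and 0.21, and the brighter 50%, to which most members belong, 0.31 and 0.25. Deficient replicate 1 was below deficient replicate 2 for 14 of 19 Kdm, 6 of 13 Hdac and 1 of 7 Sirt probe sets, against 53.9% of the table. The largest distances were 1.92 for Kdm5b, 1.71 for Hdac2 and 1.20 for Kdm2a, each with replicate 1 lower. Kdm8 and Hdac8 had replicate 1 higher, by 1.08 and 0.94.

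Genes listed with the writers of the same marks were counted with 1 probe set per gene. At an unadjusted p under 0.05 in limma, the table of 19938 genes had 6.36% lower and 6.99% higher, with a median difference of 0.16. Of 16 histone acetyltransferase genes 5 were lower and 1 higher, with a median of −0.38. Kat6b differed by −1.50 (SE 0.20), Crebbp by −1.25 (SE 0.25) and Kat8, of the MSL and NSL complexes, by 0.68 (SE 0.16). The list for lysine 4 methylation had 3 of 12 lower and 1 higher (median −0.48). Kmt2e, in the list by its family name and not as an established writer, differed by −1.70 (SE 0.38). Kmt2a, which encodes MLL1, differed by −1.08 (SE 0.25) and Smyd1 by 0.55 (SE 0.16). Writers of lysine 9 methylation had 2 of 6 lower and 0 higher (median −0.84), with Setdb1 at −0.93 (SE 0.21), Ehmt1 at −0.74 (SE 0.20) and Suv39h2 at −1.04 (SE 0.41). The Polycomb complex that writes lysine 27 methylation had 3 of 10 lower and 0 higher (median −0.50), with Mtf2 at −1.93 (SE 0.26), Aebp2 at −0.65 (SE 0.18) and Suz12 at −0.92 (SE 0.27). Writers of lysine 36 methylation had 1 of 6 lower and 0 higher (median −0.89), with Nsd3 at −1.47 (SE 0.32). The 5 lists of writers all had negative medians. Smyd2 is in both the lysine 4 and the lysine 36 list. Among the brighter 50% of all probe sets, 8.34% were lower at the same threshold and the median was 0.079. The lists were not counted under another scaling. Counted with 1 probe set per gene, the Kdm median was −0.32, while those of Hdac (0.078) and Sirt (0.20) were above 0. None of the genes passed the adjusted threshold.

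Partners of the deacetylases were counted in the same way. The NCoR and SMRT complex, which holds Hdac3, was itself divided, with 3 of 6 genes lower and 1 higher and a median of −1.002. Tbl1x read 8.63 and 8.60 on the controls against 7.23 and 7.35 on the deficient pair, a difference of −1.32 (SE 0.14), and Tbl1xr1 differed by −1.21 (SE 0.31). Gps2, another subunit, was higher as Hdac3 was, at 9.04 and 9.35 against 10.21 and 10.15, a difference of 0.98 (SE 0.18). SIN3 partners had 3 of 14 lower and 0 higher (median −0.28). Among them Sinhcaf, a SIN3 subunit, stood farthest away, at 10.47 and 10.13 against 7.25 and 7.69, a difference of −2.83 (SE 0.24, adjusted p = 0.173). Ing1 differed by −1.40 (SE 0.25) and Arid4a by −1.08 (SE 0.27).

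CoREST partners had 2 of 10 lower and 1 higher (median −0.24). Phf21a, the reader subunit that binds beside Kdm1a, differed by −2.06 (SE 0.44), Zmym3 by −0.61 (SE 0.14) and Gfi1b, a repressor that recruits the complex in erythroid and megakaryocyte cells, by 0.81 (SE 0.18). NuRD partners had 1 of 12 lower and 1 higher (median −0.0080), with the remodeller gene Chd4 at −0.70 (SE 0.15), Chd5 at 0.56 (SE 0.19) and Chd3 at −0.27 (SE 0.14). Partners of class IIa deacetylases had 4 of 17 lower and 1 higher (median −0.48), with Mef2a at −1.06 (SE 0.24), Camk2g at −1.06 (SE 0.17) and Camk4 at 0.70 (SE 0.20).

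For NAD synthesis and use, 3 of 16 were lower and 0 higher with a median of 0.015, and Parp1, Parp2 and Qprt differed by −0.83 (SE 0.17), −0.51 (SE 0.17) and −0.66 (SE 0.22). Substrates and regulators of sirtuins had 1 of 17 lower and 0 higher (median −0.087), with Lcp1 at −1.55 (SE 0.45), Acss1 at 1.11 (SE 0.45) and Sod2, a Sirt3 substrate, at 0.84 (SE 0.38). Among enzymes around α-ketoglutarate, the cosubstrate of JmjC enzymes, 1 of 10 was lower and 1 higher (median −0.033), with Idh1 at −1.63 (SE 0.44), Got1 at 0.82 (SE 0.22) and D2hgdh at 0.27 (SE 0.15). Other JmjC-domain genes had 1 of 14 lower and 1 higher (median 0.079), with Jarid2, a Polycomb cofactor, at −1.29 (SE 0.42), Hspbap1 at 0.85 (SE 0.25) and Phf8 at −0.25 (SE 0.15). Of the 3 TET dioxygenases, which act on DNA methylation, 0 passed in either direction, and Tet1, Tet2 and Tet3 differed by −1.26 (SE 0.73), −0.16 (SE 0.15) and −1.06 (SE 0.54).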

How the data were processed

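Small amounts of RNA, from 800 pg to 50 ng, were amplified before labelling, per the labels' protocols. The labels give this range for all arrays and no amount for each. RMA and Partek are named in the submitters' processing notes, with no version. The deposited values are on a log2 scale, judged from their range, 1 per probe set and array, and were used without renormalizing. The sources used here give no genome build for the authors' annotation. Probe sets were named from the platform annotation (21789 with 1 symbol, 1621 with several, 12146 with none), and updating symbols by Entrez number to RefSeq GRCm38.p6 changed 0 members. In R 4.3.3, limma 3.58.1 (lmFit, eBayes, genotype as only term) was fitted to all 35556 probe sets of the 4 arrays, with Benjamini-Hochberg adjustment over all of them. SE is that of the moderated fit, and SD is over 2 arrays. For gene lists, the probe set with the highest mean stood for a gene. No set test was run. Figures used matplotlib 3.10.9 in Python 3.11.15. Arrays give no read depth, and their number limits the precision.

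Members described in full had an unadjusted p under 0.05 or the smallest difference of their family, every other member could be named with its values, and from each pathway list up to 3 genes with the smallest unadjusted p were named. Alternatives were cyclic loess, subtraction of column medians, removal of the dimmer 50% of probe sets, a trended robust variance, a replicate block, 1 probe set per gene, and leaving out each array. The members and lists were chosen with earlier results of these data known.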

Additional observations from a re-analysis of the deposited data

How the results depend on the processing

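In every alternative run, 0 probe sets passed the adjusted threshold in limma (4225 at an unadjusted p under 0.05 in the fit reported), and the lowest adjusted p of a member in any of them was 0.228. At the unadjusted threshold, the reported counts of members were 5 lower and 2 higher. The lower count was 8 with cyclic loess. The higher count was 1 with subtracted column medians, 1 with a trended robust variance and 1 with the replicate block. With 1 array left out, the lower count ran from 1 (without control replicate 1) to 7 and the higher count from 1 to 4. In such fits the lone array of a group is assumed to vary like the others. For all probe sets the higher count of 2360 was 1191 with cyclic loess, 1537 with subtracted column medians, 964 without the dimmer 50% and 1341 with the replicate block, and from 714 to 2198 with 1 array left out. The lower count of all probe sets ran from 1590 to 2295 with 1 array left out. Over all probe sets the median difference of 0.15 became −0.0045 with cyclic loess, 0.065 with subtracted column medians and 0.079 without the dimmer 50%. The Kdm median was −0.64 without the dimmer 50%, which leaves out Kdm4d, Kdm5d and both Kdm7a probe sets. The Hdac median was 0.078 with 1 probe set per gene and from −0.29 to 0.071 with 1 array left out. Of the 39 members, 29 kept the sign of their difference in all alternatives that gave them a value and 10 did not. The signs changed for 3 with cyclic loess, 2 with subtracted column medians and 2 to 4 with 1 array left out. The block cannot change a difference in this balanced design, only its error. The replicate block rests on numbers alone, since same-numbered arrays had a correlation of −0.088 between their deviations from the group means. The cause of these changes was not tested.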
